A study of Homo sapiens with 24 samples.

Results

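The genes described here are 36 enzymes, regulators and carriers of sphingolipid, ceramide and ganglioside metabolism, chosen as a list of gene symbols and matched to gene identifiers among the 58735 genes counted in the series. All 36 were found. RNA was measured in HT-144, an established line of human melanoma cells taken from a metastasis, 3 days after transfection with Lipofectamine RNAiMAX in RPMI-based medium with insulin, transferrin and selenium. The control groups were a mock transfection without oligonucleotide (Mock), a negative-control siRNA (siNegative, 50 nM) and a negative-control antisense oligonucleotide (ASO-Neg, 5 nM). The targeting groups were pooled siRNAs against SREBF1 (siSREBF1, 50 nM) and the antisense oligonucleotides ASO-SREBF1-S1 and ASO-SREBF1-S4 (5 nM each). SREBF1 encodes a transcription factor of fatty acid and lipid synthesis genes. Each group was 1 library, so replicates of a group do not exist and the 3 libraries of a side differ in the reagent they received. By its title the series asked which effects are specific to an SREBF1-depleting ASO.

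Sphingolipids are built on a sphingoid base that serine palmitoyltransferase makes from serine and a fatty acyl-CoA, normally palmitoyl-CoA. Ceramide synthases attach a further fatty acid, a desaturase completes ceramide, and ceramide is then carried to sphingomyelin synthases, glycosylated, or broken down to sphingosine and sphingosine 1-phosphate. In the glycosylated branch glucosylceramide becomes lactosylceramide, then the ganglioside GM3, then GD3 and the GM2 and GD2 series. Melanoma cells are known for displaying GD3 and other gangliosides at their surface.

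Of the 4 genes with printed sequences, ST8SIA1 (GD3 synthase) and ST3GAL5 (GM3 synthase) are the members called past the 1.5-fold limit in a matched comparison. That call also asks for 10 CPM in 1 of the libraries, and ST3GAL5 only just met the limit. The other printed genes are B4GALT5 (a lactosylceramide synthase) and SMPD1 (acid sphingomyelinase), whose targeting libraries all lay below the controls by small amounts. The targeting libraries of CERS1 and CERS6 also all lay below the controls, and their windows are not printed. The 250 bases before their RefSeq start sites on GRCh38.p14, read 5′ to 3′ on the gene's strand, are printed here because SREBP proteins act at promoters. They are chr12:22334708-22334957 for ST8SIA1 (minus strand), chr20:49713879-49714128 for B4GALT5 (minus), chr11:6390224-6390473 for SMPD1 (plus) and chr2:85888991-85889240 for ST3GAL5 (minus, the start of its canonical transcript among 5 windows listed for the gene). Capitals mark a CCAAT box (CCAAT) or a GC box (GGGCGG) on either strand.
ST8SIA1: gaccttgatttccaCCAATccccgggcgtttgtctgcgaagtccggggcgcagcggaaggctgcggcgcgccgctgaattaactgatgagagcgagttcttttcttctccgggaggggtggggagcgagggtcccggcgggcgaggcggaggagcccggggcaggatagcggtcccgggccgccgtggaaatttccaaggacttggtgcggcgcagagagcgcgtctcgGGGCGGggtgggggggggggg
B4GALT5: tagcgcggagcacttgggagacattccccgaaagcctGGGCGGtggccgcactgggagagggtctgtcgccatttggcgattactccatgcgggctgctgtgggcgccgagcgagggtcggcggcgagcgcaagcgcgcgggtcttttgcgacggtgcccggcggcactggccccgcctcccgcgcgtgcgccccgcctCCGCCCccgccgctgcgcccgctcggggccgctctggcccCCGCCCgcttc
SMPD1: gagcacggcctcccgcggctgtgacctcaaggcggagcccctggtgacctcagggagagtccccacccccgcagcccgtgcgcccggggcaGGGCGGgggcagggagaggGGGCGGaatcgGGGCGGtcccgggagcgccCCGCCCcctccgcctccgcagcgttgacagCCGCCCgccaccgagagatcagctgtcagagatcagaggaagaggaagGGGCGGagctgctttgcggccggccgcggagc
ST3GAL5: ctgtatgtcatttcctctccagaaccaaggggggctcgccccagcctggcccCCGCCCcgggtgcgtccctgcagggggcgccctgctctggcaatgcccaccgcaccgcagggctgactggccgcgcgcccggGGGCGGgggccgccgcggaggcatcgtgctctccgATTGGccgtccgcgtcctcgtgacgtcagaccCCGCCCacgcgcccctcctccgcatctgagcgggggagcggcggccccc

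RefSeq windows were found for 28 of the 36 members. The sterol regulatory element form TCACNCCAC was in 0 of the 28 windows, against 0.883% of all 35116 windows of this length in the table. The E-box CACGTG was in 0 of the 28, against 6.35%. CCAAT was in 8 of the 28 (28.57%), against 32.01%, and GGGCGG in 26 (92.86%), against 42.64%. The window of ST8SIA1 held 1 CCAAT and 1 GC box, that of B4GALT5 3 GC boxes, that of SMPD1 6 GC boxes and that of ST3GAL5 1 CCAAT and 3 GC boxes. No match overlapped a match to another motif in these 4 windows. The member windows were rich in G and C, with a median of 74.2% against 58% over all windows. Each member gave 1 window, the nearest to its canonical start, while all windows include several for some genes. The shares thus come from unlike sets, and they were not adjusted for G and C content. A match describes letters only, and the lack of one says only that these letters are not in this window.

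The libraries held 12916478 to 47900277 gene counts, the largest being ASO-SREBF1-S1. SREBF1 RNA stood at 217 to 249.7 CPM (gene counts scaled to the TMM-adjusted library size) in the controls and at 55 to 77.05 in the targeting libraries, a log2 ratio of -1.78 (adjusted p = 0.00164, edgeR quasi-likelihood). All 11 pigment cell and melanoma markers were at 1 CPM or more in every library, with summed levels of 6008 to 7396 CPM in controls and 5146 to 6503 in targeting libraries. The 5 immune markers PTPRC, CD3E, CD14, CD68 and ITGAM summed to 0.785 to 0.883 CPM in controls and 0.498 to 1.54 in targeting libraries, with CD3E below 3 counts in every library. The 5 endothelial markers summed to 38.6 to 42.9 and 38.3 to 58.2 CPM, the 7 keratinocyte markers to 23.7 to 25.5 and 23.4 to 29.6 CPM (KRT1 and DSG3 below 3 counts in every library), and the 8 fibroblast markers to 712 to 928 and 675 to 980 CPM. Most of these sums came from KDR (34.65 to 55.67 CPM over the libraries), KRT10 (21.55 to 28.29) and COL1A2 (558.4 to 875.4), respectively. Of the other fibroblast markers, LUM had 50.59 to 84.68 and FAP 32.24 to 41.48 CPM. COL1A1, COL3A1, DCN and PDGFRA had at most 4.03 CPM in any library. Of these 36 markers 24 were high enough for the test between the sides, none of them immune, and 0 of the 24 passed. In bulk RNA, a smaller number of cells of some kind and less RNA per cell cannot be told apart.

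The pathway was expressed along most of its length, and it was led by a few enzymes. Of the 36 genes, 28 were at 10 CPM or more in every library and 3 (DEGS2, FA2H and B3GALT4) were below 1 CPM in every library. Per kilobase of canonical transcript, CERS2 was highest with a mean of 117.5 CPM per kb over the 6 libraries, followed by ASAH1 with 81.7 and B4GALT5 with 71.6, whose ranges overlapped. SPTSSA (43.9), CERT1 (42.5) and DEGS1 (39.9) came next, and their ranges over the libraries overlapped. SMPD1 had 30.3, ST3GAL5 25.6, SPTLC1 25.3, B4GALT6 23.8 and UGCG 23.7 CPM per kb, again with overlapping ranges from ST3GAL5 to UGCG. DEGS2 was lowest with 0.0704 CPM per kb. Which transcript of each gene was used was not measured, so these levels depend on the annotated canonical length.

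**Figure D1:**
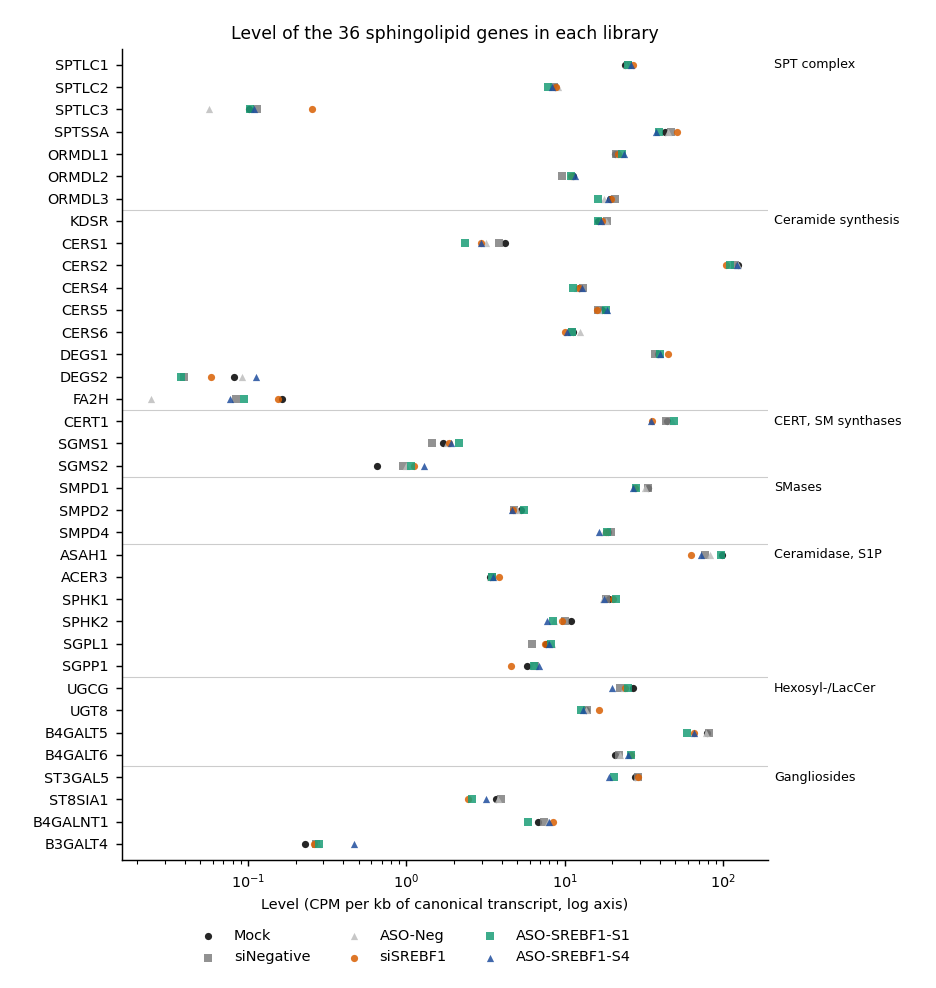
Level of each of the 36 genes in each of the 6 libraries, in CPM per kb of canonical transcript on a log axis, ordered by role. CERS2, ASAH1 and B4GALT5 lie farthest to the right, and for most genes the 6 points fall almost on each other.

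The levels varied little between libraries. Among the 28 genes at 10 CPM or more, the highest library was 1.12 to 1.62 times the lowest, with a median of 1.26, and 25 of the 28 stayed under 1.5-fold. Over the 9237 genes of the series with 10 CPM or more in every library the median was 1.24, and 89.5% stayed under 1.5-fold.

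The first comparison set the 3 targeting libraries against the 3 controls. No sphingolipid gene passed an adjusted p of 0.05 in edgeR's quasi-likelihood test, in which 33 of the 36 could be tested and 9 of 15123 genes passed (0.0595%). DESeq2, run as an alternative, called 2 of the 33, against 170 of 15123 genes (1.12%), both lower in the targeting libraries (B4GALT5, adjusted p = 0.0107, and ST8SIA1, adjusted p = 0.0258). The alternatives for these 2 genes gave adjusted p-values from 0.0107 to 0.894 and from 0.00169 to 0.894. limma-voom called 0. At an unadjusted p under 0.05 there were 5 of 33 genes (15.15%), against 10.2% of all genes tested. Of these, 1 was higher (B4GALT6, against 4.93% of all genes) and 4 lower (CERS1, SMPD1, B4GALT5 and ST8SIA1, against 5.3%). The log2 ratios ran from -0.48 to 0.63 with a median of -0.05, against a median of 0.01 over all genes. There were 20 genes below 0, and 48.5% of all genes were below 0. The precision was enough to bound most genes: for 28 of the 33 the 95% interval lay within 1.5-fold either way, and it reached past that for SPTLC3, CERS1, SGMS2, ST3GAL5 and ST8SIA1. Because the sides hold different reagents, the p-values reflect differences among reagents and among cultures together, and Mock, without oligonucleotide, stood on the control side only.

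The 3 targeting libraries lay entirely on 1 side of the 3 controls for 9 of the 33 genes (27.27%), against 17.4% of all genes tested. The 5 lower ones were CERS1, CERS6, SMPD1, B4GALT5 and ST8SIA1 (8.52% of all genes were lower in this sense), and the 4 higher ones DEGS1, SGMS1, SGMS2 and B4GALT6 (8.87% of all genes). Sides of 3 against 3 cannot give an exact permutation p below 0.1 for a single gene.

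**Figure D2:**
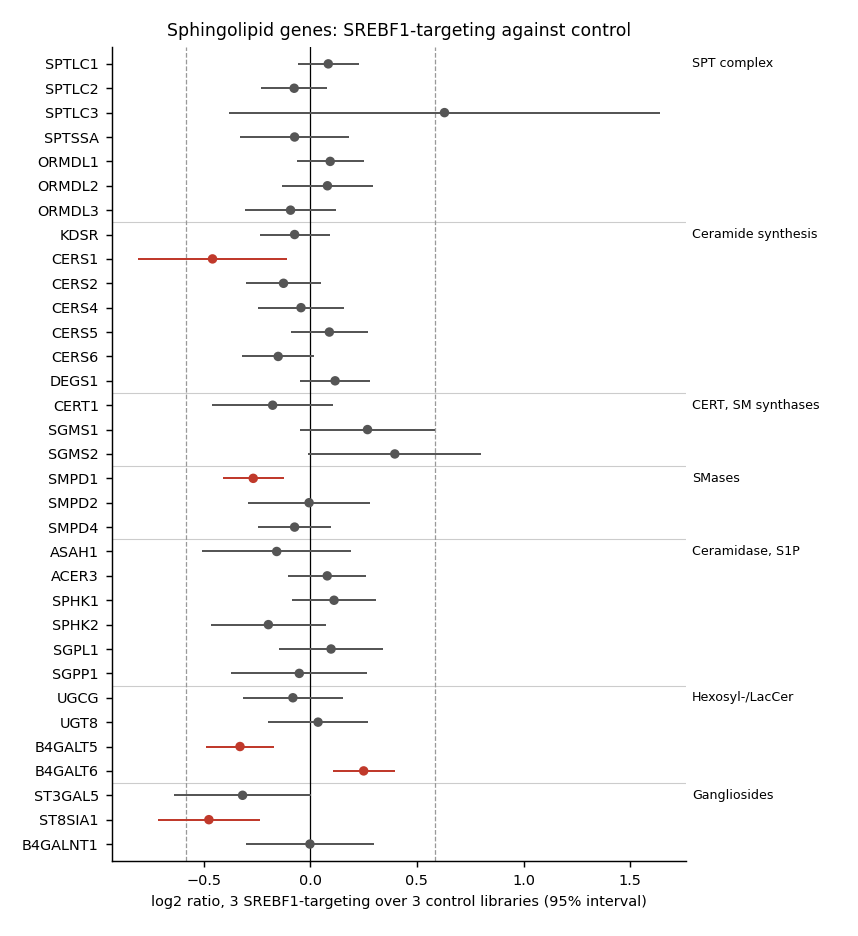
log2 ratio of the 3 targeting over the 3 control libraries for the 33 tested genes, with 95% intervals from the edgeR fit. Dashed lines mark 1.5-fold, and red marks the 5 genes with an unadjusted p under 0.05. None passed the adjusted threshold, and 28 of the 33 intervals lie between the dashed lines.

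In sphingoid base synthesis the sides overlapped or touched for every gene. The 7 genes of serine palmitoyltransferase and its regulators all missed the test, 4 with a log2 ratio above 0 and 3 below. SPTLC1 and SPTLC2, the large catalytic pair, had 66.8 to 74.7 and 63.2 to 72.5 CPM over the 6 libraries, and log2 ratios of 0.08 (95% interval -0.06 to 0.23) and -0.08 (-0.23 to 0.08). SPTLC1 made up 72.9% to 75.9% of the summed CPM per kb of SPTLC1, SPTLC2 and SPTLC3. SPTLC3, an alternative large subunit, had 0.353 to 1.57 CPM, the highest in siSREBF1, and its interval of -0.38 to 1.64 was too wide to read a direction. The ORMDL proteins restrain the enzyme. ORMDL1, ORMDL2 and ORMDL3 had 44.97 to 50.96, 19.3 to 23.6 and 34.3 to 43.8 CPM, and none passed the test.

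SPTSSA, a small activating subunit and the highest gene of the group per kilobase, had 114 CPM (Mock), 125 (siNegative), 119.8 (ASO-Neg), 137 (siSREBF1), 105 (ASO-SREBF1-S1) and 100.1 (ASO-SREBF1-S4). The siRNA library was above all controls and both ASO libraries below them. In the fit that separates the reagents, siSREBF1 over the ASO pair gave a log2 ratio of 0.41 (adjusted p = 0.225, edgeR quasi-likelihood). SPTSSA overlaps EGLN3 on the same strand in the annotation, and the files count reads that fit both genes apart from either.

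Ceramide synthesis was dominated by CERS2, the synthase for very long acyl chains, in every library. CERS2 had 288 CPM (Mock), 277 (siNegative), 289 (ASO-Neg), 242 (siSREBF1), 256 (ASO-SREBF1-S1) and 285 (ASO-SREBF1-S4). It was lowest in siSREBF1, while ASO-SREBF1-S4 lay within the controls' range. CERS2 accounted for 71.7% to 73.8% of the summed CPM per kb of the 5 ceramide synthases counted here. CERS4 and CERS5 had 20.1 to 23.2 and 39.9 to 46.4 CPM. None of the 7 tested genes of this group passed the test, with 2 above 0 and 5 below.

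CERS1, the synthase that prefers stearoyl-CoA, stood at 10.8, 9.98 and 8.24 CPM in Mock, siNegative and ASO-Neg, and at 7.61, 6.02 and 7.69 CPM in siSREBF1, ASO-SREBF1-S1 and ASO-SREBF1-S4. The sides did not overlap, but ASO-Neg lay close to the targeting libraries. Its log2 ratio was -0.46 ± 0.16 (SE; adjusted p = 0.349, edgeR quasi-likelihood), with means of 9.66 ± 1.29 and 7.11 ± 0.947 CPM (SD, n = 3 each). CERS1 overlaps GDF1 on the same strand, so its counts are uncertain. CERS6, which prefers palmitoyl-CoA, had 77.1, 75.6 and 85.5 CPM in those controls and 68.4, 75.4 and 70.3 in the same targeting order, so ASO-SREBF1-S1 and siNegative nearly touched.

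KDSR, the reductase after serine palmitoyltransferase, had 83.1 to 94.96 CPM. DEGS1, the desaturase that completes ceramide, had 78.4 CPM (Mock), 75.4 (siNegative), 79.6 (ASO-Neg), 91.2 (siSREBF1), 80.9 (ASO-SREBF1-S1) and 81.1 (ASO-SREBF1-S4). All 3 targeting libraries lay above the highest control of DEGS1, siSREBF1 the farthest. DEGS2, its relative that can also hydroxylate, and FA2H, which hydroxylates the fatty acid, had at most 0.431 and 0.392 CPM and were too low for the test.

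From ceramide to sphingomyelin, CERT1, the protein that carries ceramide to the Golgi, separated the reagents rather than the sides. CERT1 had 172, 169 and 184 CPM in Mock, siNegative and ASO-Neg, 137 (siSREBF1), 190.0 (ASO-SREBF1-S1) and 136 (ASO-SREBF1-S4). It was low in siSREBF1 and ASO-SREBF1-S4 and highest of all in ASO-SREBF1-S1, with a log2 ratio of -0.18 over the sides (adjusted p = 0.669, edgeR quasi-likelihood).

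The sphingomyelin synthases were low and slightly higher in the targeting libraries. SGMS1, the Golgi enzyme, had 6.36, 5.42 and 6.71 CPM in Mock, siNegative and ASO-Neg and 6.94, 7.97 and 7.14 in siSREBF1, ASO-SREBF1-S1 and ASO-SREBF1-S4. SGMS2, the form also found at the plasma membrane, had 4.08, 5.93 and 6.24 CPM in those controls and 6.94, 6.64 and 8.12 in the same targeting order. Both genes' sides were apart by little, and their log2 ratios of 0.27 (-0.05 to 0.58) and 0.40 (-0.01 to 0.80) missed the test (adjusted p = 0.561 and 0.492, edgeR quasi-likelihood). For SGMS2, Mock alone was low, so siNegative over Mock was already 0.53 on the log2 scale (95% counting interval 0.06 to 1.04).

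SMPD1, the lysosomal acid sphingomyelinase that returns sphingomyelin to ceramide, was lower in all 3 targeting libraries by nearly the same amount. It had 81.4 CPM (Mock), 81.0 (siNegative), 77.4 (ASO-Neg), 66.5 (siSREBF1), 67.8 (ASO-SREBF1-S1) and 64.8 (ASO-SREBF1-S4). The mean was 79.9 ± 2.23 in the controls and 66.3 ± 1.51 CPM in the targeting libraries (SD, n = 3 each), a log2 ratio of -0.27 ± 0.06 (SE; adjusted p = 0.222, edgeR quasi-likelihood). The means of SMPD1 differed by more than the SD of either side, and the difference did not pass the adjustment over all genes. Genes were also picked for display by having sides apart, as 17.4% of all genes tested had, so this gap adds no support. Each SD is taken over libraries that received different reagents, so it is not a spread of replicates. The neutral sphingomyelinases SMPD2 and SMPD4 had 7.82 to 9.29 and 61.2 to 73.2 CPM, with log2 ratios of -0.01 and -0.07. As a share of the 3 enzymes' summed CPM per kb, SMPD1 was 58.0% to 58.6% in the controls and 54.7%, 54.0% and 56.1% in siSREBF1, ASO-SREBF1-S1 and ASO-SREBF1-S4.

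Ceramide breakdown and sphingosine 1-phosphate genes showed no common direction, with 3 of 6 log2 ratios above 0 and none past the test. ASAH1, the lysosomal acid ceramidase and a strongly expressed enzyme of pigment cells, had 274 CPM (Mock), 215 (siNegative), 231 (ASO-Neg), 174 (siSREBF1), 269 (ASO-SREBF1-S1) and 200.2 (ASO-SREBF1-S4). The controls themselves spread widely, and ASO-SREBF1-S1 lay inside their range while siSREBF1 and ASO-SREBF1-S4 lay below it. ACER3, an alkaline ceramidase, had 24.7 to 28.4 CPM. The sphingosine kinases SPHK1 and SPHK2 had 31.7 to 38.3 and 21.2 to 30.2 CPM, and SPHK1 made up 63.3% to 71.3% of their summed CPM per kb. SGPL1, the lyase that ends the pathway, had 35.8 to 48.3 CPM, with the lowest value in siNegative. SGPP1, which removes the phosphate from sphingosine 1-phosphate, had 19.4 to 21.6 CPM in the controls, 15.4 (siSREBF1), 21.3 (ASO-SREBF1-S1) and 23.0 (ASO-SREBF1-S4).

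The glycosylated branch held the lowest adjusted p-values of the 33 genes, those of B4GALT5 and ST8SIA1. UGCG, which makes glucosylceramide, had 78.8 to 107 CPM with overlapping sides. UGT8, which makes galactosylceramide, had 50.6 to 51.8 CPM in the controls, 61.7 (siSREBF1), 47.0 (ASO-SREBF1-S1) and 48.8 (ASO-SREBF1-S4). Neither passed the test over the sides.

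The lactosylceramide synthases differed in opposite directions. B4GALT5 (ENSG00000158470, GRCh38 chromosome 20, 49632945 to 49713878, minus strand) had 376 CPM (Mock), 384 (siNegative), 370.4 (ASO-Neg), 311 (siSREBF1), 279 (ASO-SREBF1-S1) and 309.6 (ASO-SREBF1-S4). The controls lay close together and all targeting libraries lay below them. The mean was 376.7 ± 6.78 in the controls and 299.7 ± 18.1 CPM in the targeting libraries (SD, n = 3 each), a log2 ratio of -0.33 ± 0.07 (SE; adjusted p = 0.184, edgeR quasi-likelihood).

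B4GALT6 (ENSG00000118276, GRCh38 chromosome 18, 31622246 to 31685836, minus strand) had 97.6, 103 and 104 CPM in Mock, siNegative and ASO-Neg and 122, 123 and 117 in siSREBF1, ASO-SREBF1-S1 and ASO-SREBF1-S4. All targeting libraries lay above all controls, with means of 101.4 ± 3.33 and 120.6 ± 3.60 CPM (SD, n = 3 each). The log2 ratio of B4GALT6 was 0.25 ± 0.06 (SE; adjusted p = 0.244, edgeR quasi-likelihood). Each gene alone missed the adjusted threshold.

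Within a library, the ratio of B4GALT5 to B4GALT6 CPM was 3.85 (Mock), 3.74 (siNegative) and 3.56 (ASO-Neg), and 2.55 (siSREBF1), 2.26 (ASO-SREBF1-S1) and 2.66 (ASO-SREBF1-S4). It does not depend on library size. The ratio was 3.72 ± 0.147 in the controls and 2.49 ± 0.205 in the targeting libraries (SD, n = 3 each). This pair was singled out after its values were seen, and since both genes' sides were already apart in opposite directions, the ratio had to separate the sides, so it is given without a test. B4GALT5 supplied 77.9% to 79.2% of the summed CPM per kb of both genes in the controls and 69.1% to 72.5% in the targeting libraries, and the sum itself was 100.5 to 103.2 CPM per kb and 85.4 to 91.9 CPM per kb.

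Among the ganglioside synthases, ST8SIA1 was lower in all 3 targeting libraries, and ST3GAL5 was lower in both ASO libraries and at the controls' level in siSREBF1. ST8SIA1 (ENSG00000111728, GRCh38 chromosome 12, 22063773 to 22437041, minus strand) makes GD3 from GM3. Its annotated span overlaps those of ENSG00000274624, SULT6B2P, RNU1-149P and ENSG00000256714 on the same strand, and any effect on its counts was not tested. ST8SIA1 had 35.9 CPM (Mock), 38.5 (siNegative), 36.8 (ASO-Neg), 23.8 (siSREBF1), 25.2 (ASO-SREBF1-S1) and 31.1 (ASO-SREBF1-S4). The controls were close together, and ASO-SREBF1-S4 was the nearest to them. Its mean was 37.1 ± 1.30 in the controls and 26.7 ± 3.90 CPM in the targeting libraries (SD, n = 3 each), the lowest log2 ratio of the 33 tested genes at -0.48 ± 0.11 (SE; adjusted p = 0.189, edgeR quasi-likelihood).

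ST3GAL5 (ENSG00000115525, GRCh38 chromosome 2, 85837120 to 85905199, minus strand) makes GM3 from lactosylceramide, the entry step for most gangliosides. It had 121 CPM (Mock), 127 (siNegative), 124 (ASO-Neg), 127 (siSREBF1), 89.2 (ASO-SREBF1-S1) and 82.7 (ASO-SREBF1-S4). The siRNA library stood with the controls, while both ASO libraries stood below every control. B4GALNT1, which makes GM2 and GD2, had 36.3 to 42.0 CPM in the controls, 45.5 (siSREBF1), 31.4 (ASO-SREBF1-S1) and 42.5 (ASO-SREBF1-S4), with a log2 ratio of 0.00 over the sides (95% interval -0.30 to 0.30). B3GALT4, which extends GM2 and GD2, had 0.392 to 0.80 CPM.

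**Figure D3:**
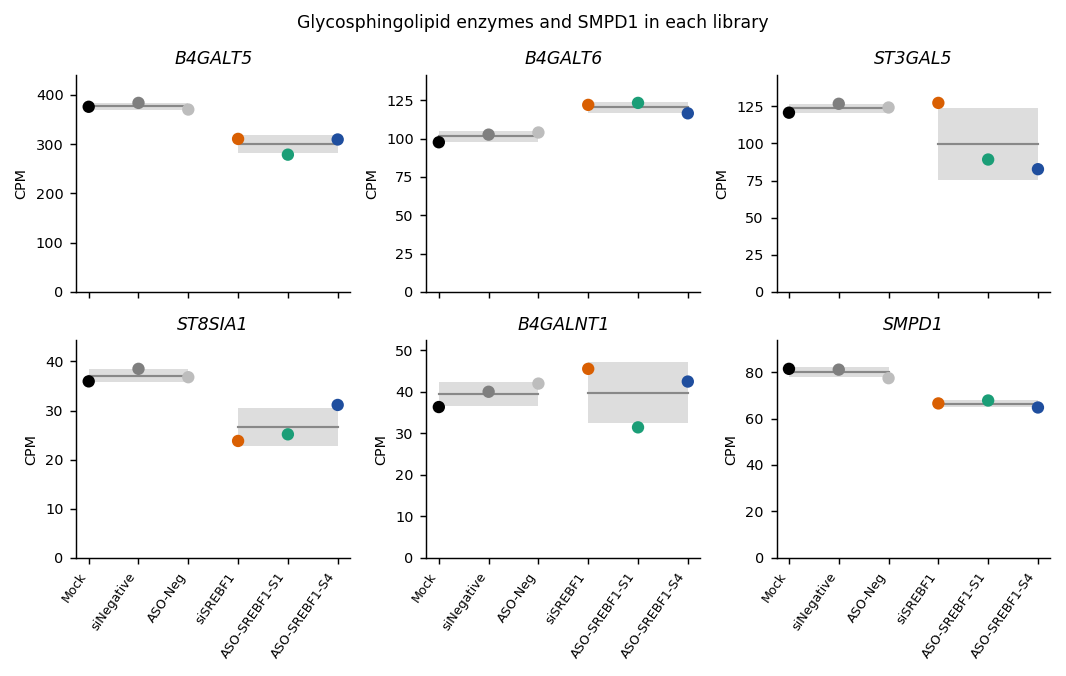
CPM of 6 genes in each library, with the mean (line) and SD (band) of the 3 control and the 3 targeting libraries, all axes from 0. B4GALT5, ST8SIA1 and SMPD1 lie lower and B4GALT6 higher in all 3 targeting libraries, ST3GAL5 is low in the ASO libraries alone, and B4GALNT1 is low in ASO-SREBF1-S1 alone.

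The reagents were then separated in a fit with 3 classes, controls, the SREBF1 ASO pair and siSREBF1, in which 34 of the 36 genes could be tested. None passed for the ASO pair against the controls (edgeR quasi-likelihood, 7 of 16297 genes passing, 0.043%). At an unadjusted p under 0.05 there were 8 of 34 genes (23.53%), against 11.2% of all genes, with 1 higher (5.34% of all genes) and 7 lower (5.86%). ST3GAL5 came nearest with a log2 ratio of -0.53 and an adjusted p of 0.0602. With a robust estimate of the dispersion its adjusted p was 0.0414, and the alternatives ranged from 8.33e-05 to 1. The others were B4GALT5 (-0.36), ST8SIA1 (-0.41), SMPD1 (-0.27), CERS1 (-0.51), SPTSSA (-0.22) and SPHK2 (-0.28) on the lower side and B4GALT6 (0.24) on the higher. The median log2 ratio was -0.06 over the 34 genes and 0.00 over all genes.

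For siSREBF1 against the ASO pair, none of the 34 passed (edgeR quasi-likelihood, 24 of 16297 genes passing, 0.147%), and 5 (14.71%) had an unadjusted p under 0.05, against 8.71% of all genes, with 4 higher (4.39% of all genes) and 1 lower (4.32%). ST3GAL5 was higher in siSREBF1 by 0.56 on the log2 scale (adjusted p = 0.0864). SPTSSA was higher by 0.41 and UGT8 by 0.36, and SGPP1 was lower with a log2 ratio of -0.53. SPTLC3 was higher by 1.25, but it had at most 1.57 CPM in any library. This comparison holds 1 siRNA library and assumes that it varies like the others. The dose and kind of reagent differ between its sides. SREBF1 RNA was also lower in siSREBF1, at 55 CPM, than in ASO-SREBF1-S1 (77.05) and ASO-SREBF1-S4 (70.41). The parts of dose, kind of reagent and SREBF1 level cannot be told apart.

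Each targeting library was last set against the control of its own kind, with no test, since each is 1 library over 1 library. The log2 ratios carry 95% counting intervals, which cover counting error only, and a gene is called from 1.5-fold on where the interval excludes 0 and 1 of the libraries has 10 CPM. Both ASO comparisons share ASO-Neg. In siSREBF1 over siNegative, 0 of 28 genes were called higher (1.28% of all genes) and 1 lower (1.4% of all genes), ST8SIA1 at -0.69 (-0.89 to -0.50). In ASO-SREBF1-S1 over ASO-Neg, 0 of 28 were called higher (0.799% of all genes) or lower (1.46%), and ST8SIA1 stood at -0.55 (-0.69 to -0.41). In ASO-SREBF1-S4 over ASO-Neg, 0 of 28 were called higher (2.18% of all genes) and 1 lower (1.37%), ST3GAL5 at -0.59 (-0.69 to -0.49). A count of 0 or 1 in 28 is too small to set these genes apart from all genes.

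Side by side, in the order siSREBF1, ASO-SREBF1-S1 and ASO-SREBF1-S4 over their controls, B4GALT5 had log2 ratios of -0.30 (-0.36 to -0.25), -0.41 (-0.45 to -0.37) and -0.26 (-0.31 to -0.20). B4GALT6 had 0.25 (0.16 to 0.34), 0.25 (0.17 to 0.32) and 0.16 (0.07 to 0.26). SMPD1 had -0.28 (-0.41 to -0.17), -0.19 (-0.28 to -0.10) and -0.26 (-0.38 to -0.14). For these 3 genes every interval excluded 0, as it also did for ST8SIA1 and CERS6. The share of all genes with such intervals is not given here, so this does not set them apart. Both ASO ratios share ASO-Neg. ST8SIA1 was shallower in ASO-SREBF1-S4, at -0.24 (-0.41 to -0.07), than in the libraries above. ST3GAL5 stood at 0.01 (-0.08 to 0.10) in siSREBF1 and -0.48 (-0.55 to -0.40) in ASO-SREBF1-S1. For CERT1 the values were -0.30, 0.05 and -0.44, for ASAH1 -0.30, 0.22 and -0.20, and for B4GALNT1 0.19, -0.42 and 0.02, so that ASO-SREBF1-S1 differed from the other two in each.

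**Figure D4:**
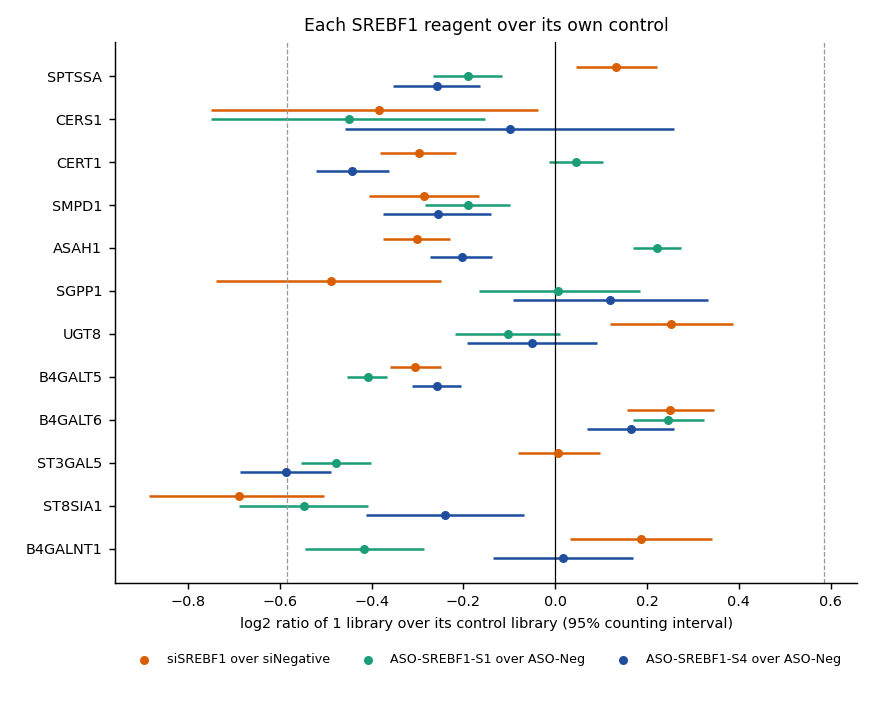
log2 ratio of each targeting library over its own control library for 12 genes, with 95% counting intervals and dashed lines at 1.5-fold. Both ASO ratios use the same ASO-Neg library. B4GALT5, SMPD1 and ST8SIA1 lie left of 0 and B4GALT6 right of 0 in all 3 ratios, while CERT1, ASAH1 and B4GALNT1 place ASO-SREBF1-S1 apart.

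Between the antisense oligonucleotides, 0 of 28 genes were called in ASO-SREBF1-S4 over ASO-SREBF1-S1 (3.16% of all genes higher and 1.47% lower). CERT1 at -0.49 (-0.56 to -0.42), ASAH1 at -0.43 (-0.48 to -0.37) and B4GALNT1 at 0.43 (0.30 to 0.56) were the ratios of largest size among these 28. The controls differed little in these genes. In siNegative over Mock, 0 of 29 genes were called (0.398% of all genes higher, 0.0612% lower), and in ASO-Neg over Mock, which shares Mock, 0 of 29 (0.133% higher, 0.44% lower). The control ratio of largest size among the 29 genes was ASAH1 at -0.35 (-0.42 to -0.29) in siNegative over Mock and CERS1 at -0.38 (-0.73 to -0.03) in ASO-Neg over Mock. B4GALT5, B4GALT6, SMPD1, ST3GAL5 and ST8SIA1 all had intervals that held 0 in both control ratios.

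A further 51 genes of the pathway were followed from a separate list, of which 35 could be tested, and none passed between the sides in edgeR's quasi-likelihood test. At an unadjusted p under 0.05 there were 1 higher and 3 lower, against 4.93% and 5.3% of all genes, so the count is near that of all genes. ALDH3A2, which oxidises the fatty aldehyde left by SGPL1, had 75.4 to 78.1 CPM in controls and 83.2 to 89.8 in targeting libraries. SPTSSB, the small subunit that stands in for SPTSSA, had 2.41 to 3.14 and 0.518 to 1.64 CPM, a log2 ratio of -1.40 (adjusted p = 0.275). NEU3, a plasma membrane sialidase of gangliosides, had 42.2 to 49.6 and 35.4 to 40.6 CPM. ST6GALNAC3, a sialyltransferase, had 8.83 to 14.5 CPM in controls and 6.55 to 9.03 in targeting libraries, and its low control was ASO-Neg.

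In the matched ratios of these further genes, GALC, the lysosomal galactosylceramidase, was called higher in both ASO ratios, at 0.89 (ASO-SREBF1-S1) and 0.97 (ASO-SREBF1-S4). The library that stood apart was ASO-Neg, with 16.3 CPM of GALC against 27.3 to 32.1 in the other 5. PSAP, the precursor of the saposins that help lysosomal enzymes, had 1953 to 2197 CPM in 5 libraries and 1271 (ASO-SREBF1-S4), a log2 ratio of -0.64 over ASO-Neg. ST8SIA5, a sialyltransferase of more complex gangliosides, was called lower in ASO-SREBF1-S1 (-0.67), and ST6GALNAC3 in siSREBF1 (-0.68) and in ASO-Neg over Mock (-0.65). ACER1, ENPP7, B3GALNT1, ST8SIA3 and NEU4 were at 0 counts in every library, where 3 counts correspond to 0.0626 to 0.232 CPM.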

How the data were processed

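Polyadenylated RNA of 6 transfected cultures was sequenced in strand-specific libraries with paired 75 bp reads (per the labels' protocols). The authors deposited whole-number read counts per gene, 1 file for each of 4 lanes per library. Reads were aligned with STAR 2.6.1a to GRCh38 and FastQC was used, per the submitters' processing notes. The annotation used for counting is not given in the sources used here. Lanes, called technical replicates in the series text, differed by little more than sampling noise (chi-square over degrees of freedom 1.018 to 1.047, against 2.03 to 8.69 between libraries), and were summed. The reverse-strand column was used, since the other strand held 6.47% to 7.79% of counts. Between 80.65% and 81.82% of read pairs were assigned to a gene, and lines that name no gene were left out. Of the identifiers, 58207 matched GENCODE release 44, with 99.93% of the counts. Coordinates and transcript lengths are from that release.

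Tests used edgeR 4.0.16 in R 4.3.3 (TMM, filterByExpr, quasi-likelihood F test, two-sided, Benjamini-Hochberg adjustment over all genes at 0.05), with 4 residual degrees of freedom for the sides and 3 for the 3 classes. Ratios of 1 library over another used a prior count of 2. Alternatives were other size factors, no filter, unstranded counts, DESeq2 1.42.0, limma-voom (limma 3.58.1), chemistry as a term and the ASO libraries alone. Further ones were a library left out, a fold limit of 2, a prior count of 0.5 and library size alone. Every library was left out in turn between the sides. For the ASO pair only a control or siSREBF1 was left out, and for siSREBF1 against the pair only a control. A robust dispersion and a thinned ASO-SREBF1-S1 were added after seeing the data. Members and lists were chosen with earlier results of these data known. Values in every library are given for genes past a threshold, with sides apart, or highest of their role group per kb. Of the further pathway genes, those with an unadjusted p under 0.05 or past 1.5-fold are named.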

Additional observations from a re-analysis of the deposited data

Results flagged for a closer look

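SPTSSA, the small activating subunit of serine palmitoyltransferase, had ratios of opposite sign with the siRNA and the antisense oligonucleotides. Its log2 ratio was 0.133 in siSREBF1 over siNegative, -0.191 in ASO-SREBF1-S1 over ASO-Neg and -0.258 in ASO-SREBF1-S4 over ASO-Neg, and each 95% counting interval excluded 0. Genes were flagged by a rule that asks for exactly these opposite signs and intervals. The signs and intervals were thus fixed by the choice of the gene and add no support. The difference between these ratios was not tested as such. The nearest test, siSREBF1 against the ASO pair in the 3-class edgeR quasi-likelihood fit, gave a log2 ratio of 0.41 with an adjusted p of 0.225, and the alternatives gave adjusted p-values from 0.133 to 0.499. Both ASO ratios share ASO-Neg, and SPTSSA overlaps EGLN3 on the same strand.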

How the results depend on the processing

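No paired analysis was possible because the replicate numbers in the labels are lanes of 1 library, which were summed, and each group is 1 library. Between the sides, members called lower went from 0 to 2 of 36 without a filter on low counts, where 509 of 31378 genes were called in either direction. With DESeq2 they went to 2 of 33, where 170 of 15123 genes were called (B4GALT5 and ST8SIA1 in both). For the ASO pair, members called lower went from 0 to 3 of 36 without the filter (B4GALT5, ST3GAL5 and ST8SIA1), where 563 of 31378 genes were called. They went to 1 of 34 with a robust dispersion (ST3GAL5), an alternative added after seeing the data, where 41 of 16297 genes were called. For siSREBF1 against the ASO pair, members called higher went from 0 to 1 of 36 without the filter (ST3GAL5), where 380 of 31378 genes were called. In siSREBF1 over siNegative the 1 gene called lower became 0 at a fold limit of 2. In ASO-SREBF1-S4 over ASO-Neg it became 0 at a fold limit of 2 and 0 with library size alone. The cause of these shifts was not tested.

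Over all genes, the 9 calls between the sides became 509 without the filter, 170 with DESeq2, 5 with limma-voom, 0 with chemistry as a term, and 1 to 103 with a library left out (103 without ASO-SREBF1-S1). The 7 calls of the ASO pair became 563 without the filter, 41 with a robust dispersion and 0 in the ASO libraries alone. They became 1 to 7 with a control or siSREBF1 left out, and neither SREBF1 ASO was left out of the pair. The 24 calls of siSREBF1 against the pair became 380, 53 with a robust dispersion and 2 to 3 with a control left out.

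Of 1005 member log2 ratios under alternatives in the 3 comparisons with a test, so without the matched ratios above, 974 kept direction and side of the threshold, 9 passed it, 0 lost it and 22 changed sign, from log2 ratios of at most 0.212 in size. SMPD2 between the sides became 0.008 with unstranded counts, 0.029 with limma-voom and 0.009 with chemistry as a term, and B4GALNT1 became 0.001 with DESeq2. In the ASO libraries alone ASAH1 became 0.017 and SGPL1 -0.063, and SMPD1 in siSREBF1 against the pair became -0.001 without the filter. With a library left out, the values between the sides ran from -0.22 to 0.007 for SPTSSA, -0.088 to 0.011 for CERS4, -0.103 to 0.041 for SMPD2, -0.025 to 0.195 for SGPL1, -0.154 to 0.09 for SGPP1, -0.15 to 0.009 for UGCG, -0.089 to 0.113 for UGT8 and -0.108 to 0.154 for B4GALNT1. For the ASO pair, with a control or siSREBF1 left out, they ran from -0.044 to 0.446 for SPTLC3, -0.017 to 0.059 for SMPD2 and -0.113 to 0.069 for ASAH1. Depth limits DEGS2, FA2H, B3GALT4 and SPTLC3, where 3 counts correspond to 0.0626 to 0.232 CPM.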
